A study of Mus musculus with 117 samples.

Results

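The autosomal places where hepatocytes of DBA/2J mice carry a chromatin state that no other strain shares were collected from the chromatin state segmentations of 9 inbred mouse strains. Chromosomes 1 to 19 were cut into bins of 200 bp. A bin was taken as private to DBA/2J where the other 8 strains shared 1 state and DBA/2J had another. This gave 95015 private bins of 12313718, or 0.772%, which together cover 19.0 Mb.

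Chromatin immunoprecipitation sequencing of H3K4me1, H3K4me3, H3K27ac and H3K27me3 was carried out on liver hepatocytes of female mice 12 weeks old, with no treatment named in the labels. Besides DBA/2J, the classical laboratory strains were A/J, NZO/HlLtJ, NOD/ShiLtJ, C57BL/6J and 129S1/SvImJ, and the strains derived from wild mice were WSB/EiJ, CAST/EiJ and PWK/PhJ. Each strain had 3 mice and 13 libraries, 1 of them an input without antibody. The authors deposited 1 segmentation per strain into 14 numbered states, in which the 3 mice are combined, so neither an error within a strain nor a depth is known.

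Histone marks divide a genome into working parts. H3K4me3 marks active gene starts, H3K4me1 marks enhancers, H3K27ac marks enhancers and starts in use, and H3K27me3 marks genes silenced by Polycomb. A chromatin state is a recurring combination of such marks. DBA/2J is an old laboratory strain with several known loss alleles, among them one in Hc, which encodes complement C5, and one in Gpnmb, a membrane glycoprotein. The mark content of the 14 states was not given in the sources used here, so a state number is only a name. In what follows "14 to 13" means that the other 8 strains are in state 14 and DBA/2J is in state 13, with no order in time.

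Some states can be placed by where they lie. State 3 covered 0.456% of the DBA/2J autosomes but 40.1% of the bins that hold the start of a protein-coding gene, 88.0 times its autosomal share. State 14 covered 78.6% of the autosomes and state 13 covered 9.44%. State 3 lay within 1 kb of the start in 17 of 17 hepatocyte markers and 16 of 16 hepatocyte transcription factors. None of 10 Kupffer cell and leukocyte markers and none of 5 bile duct markers had it there, against 3 of 8 endothelial markers and 1 of 8 stellate cell markers. All 19 developmental regulators with a known start, genes that Polycomb silences in adult liver, had states 10 to 13 there and none had states 1 to 3.

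Promoter sequences of 5 genes are given first, because each stands for a different private change at a gene start. The letters run from 250 bases before the start to 50 after it, 5′ to 3′, with each CG dinucleotide in capitals. They are the RefSeq reference of GRCm38.p6, which is C57BL/6J, and not the DBA/2J sequence. Cyp8b1, the sterol 12-alpha-hydroxylase of bile acid synthesis (chr9:121916256-121916555, minus strand), stands for 1 to 3.
Cyp8b1: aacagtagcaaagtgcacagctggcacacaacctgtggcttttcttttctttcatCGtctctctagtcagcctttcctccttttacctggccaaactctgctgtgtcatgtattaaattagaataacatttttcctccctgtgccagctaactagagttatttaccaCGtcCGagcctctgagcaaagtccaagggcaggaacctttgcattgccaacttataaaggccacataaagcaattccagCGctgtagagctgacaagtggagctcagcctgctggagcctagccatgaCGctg
Zfp996, a zinc finger gene (chr12:18387241-18387540, plus strand), stands for 14 to 3.
Zfp996: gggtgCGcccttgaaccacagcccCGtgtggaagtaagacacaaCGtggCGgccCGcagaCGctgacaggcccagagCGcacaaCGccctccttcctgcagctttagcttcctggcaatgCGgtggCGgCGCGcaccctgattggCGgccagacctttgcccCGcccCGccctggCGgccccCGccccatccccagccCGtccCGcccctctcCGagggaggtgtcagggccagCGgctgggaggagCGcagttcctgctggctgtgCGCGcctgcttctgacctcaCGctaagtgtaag
C5ar1, the receptor of the complement fragment C5a (chr7:16259289-16259588, minus strand), stands for 14 to 7 and 14 to 13.
C5ar1: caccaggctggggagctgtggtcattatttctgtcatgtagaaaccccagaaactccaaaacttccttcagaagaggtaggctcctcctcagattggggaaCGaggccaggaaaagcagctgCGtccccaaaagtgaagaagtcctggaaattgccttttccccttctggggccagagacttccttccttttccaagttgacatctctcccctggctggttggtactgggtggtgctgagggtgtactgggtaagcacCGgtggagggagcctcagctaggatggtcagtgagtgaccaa
Ceacam13 (chr7:18009639-18009938, plus strand) stands for 14 to 13 at a gene of a clustered family.
Ceacam13: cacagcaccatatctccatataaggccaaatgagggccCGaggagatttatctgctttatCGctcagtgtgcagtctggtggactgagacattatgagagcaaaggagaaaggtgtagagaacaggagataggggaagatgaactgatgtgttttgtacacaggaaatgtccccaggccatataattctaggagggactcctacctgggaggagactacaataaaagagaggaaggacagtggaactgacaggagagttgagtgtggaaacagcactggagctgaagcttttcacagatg
Gfral, the receptor of the hormone GDF15 (chr9:76213608-76213907, minus strand), stands for 13 to 14.
Gfral: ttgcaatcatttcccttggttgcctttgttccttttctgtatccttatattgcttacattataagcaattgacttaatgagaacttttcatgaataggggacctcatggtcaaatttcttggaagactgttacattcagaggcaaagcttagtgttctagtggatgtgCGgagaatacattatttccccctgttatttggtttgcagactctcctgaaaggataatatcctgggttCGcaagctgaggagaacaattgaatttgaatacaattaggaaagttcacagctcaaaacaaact

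These promoters differed in their CG content. Zfp996 held 25 CG dinucleotides and 69.3% G and C. Cyp8b1 held 5, C5ar1 held 3, and Ceacam13 and Gfral held 2 each. Over all 20085 promoter windows of autosomal protein-coding genes the median was 14 CG dinucleotides, and 534 windows held a private bin. Those with a 14 to 13 bin had a median of 2 (58 windows), those with a 13 to 14 bin a median of 6 (43 windows), and those with a 1 to 3 bin a median of 17 (254 windows). The median was also 17 over the 4105 windows touching a bin where the other 8 shared state 1. The motif TATAAA, sought on both strands, stood in 12.7% of all windows, in 29.3% of those with a 14 to 13 bin and in 5.91% of those with a 1 to 3 bin. Of the windows touching a bin where the other 8 shared state 1, 8.43% held the motif. Neither the CG median nor the motif share was computed for windows where they shared state 14. Cyp8b1 holds TATAAA.

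DBA/2J had few private bins. Its 95015 ranked second lowest of 9, above the 79623 of C57BL/6J. The other 8 strains had 79623 to 561176, with a median of 175812 and the highest number in PWK/PhJ. The balance between entering and leaving state 14 also lay at the edge of the 9. The other 8 were in state 14 in 61.3% of the DBA/2J private bins, the lowest of 9 against 64.9% to 85.8%. DBA/2J itself was in state 14 in 26.1%, the highest of 9 against 6.72% to 21.7%. Over all autosomal bins DBA/2J also had the lowest share outside state 14, 21.4% against 21.8% to 25.2%, and the part of that in the balance was not tested. With 1 segmentation per strain, an exact permutation of 1 strain against 8 cannot give a p below 0.111, so ranks are given as a description and no test was run.

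**Figure D1:**
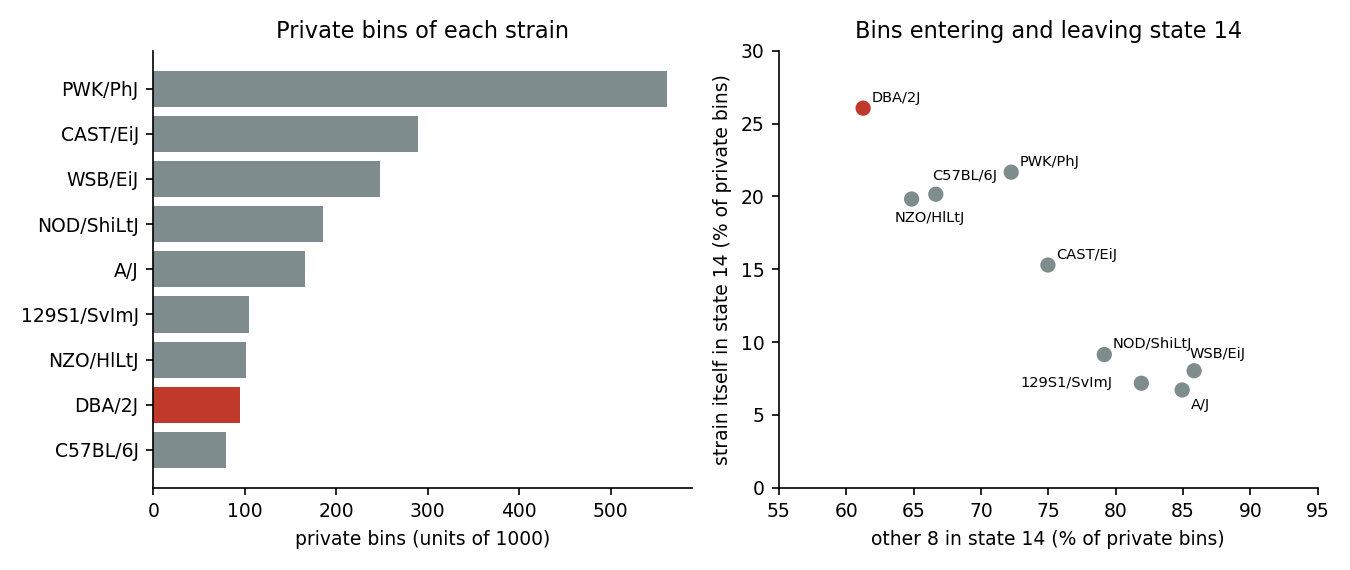
The bars give the number of private autosomal bins of each strain, in units of 1000. The points give, for each strain, the percentage of its private bins where the other 8 are in state 14 against the percentage where the strain itself is. DBA/2J, in red, has 61.3% and 26.1%, the lowest and the highest of the 9.

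A few changes held most private bins. Exchange between states 13 and 14 made up 63.6%, with 40360 bins of 14 to 13 (42.5%) and 20086 of 13 to 14 (21.1%). The share of 13 to 14 was the highest of the 9 strains, against 4.31% to 17.1%. Next came 14 to 4 with 11270 bins (11.9%), 14 to 6 with 4678 (4.92%) and 6 to 14 with 2913 (3.07%). The share of 6 to 14 was again the highest of 9, against 0.421% to 1.88%. Changes among the states outside 13 and 14 were led by 1 to 3 with 1932 bins (2.03%), 4 to 2 with 1391, 1 to 8 with 1307, 2 to 6 with 1297 and 1 to 2 with 1268.

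The change from 1 to 3 stood at the edge in number as well as in share. DBA/2J had 1932 such bins, and the other 8 had 174 to 1334 with a median of 320.5. The reverse, 3 to 1, had 141 bins in DBA/2J, the lowest of 9 against 147 to 776. DBA/2J also had the most bins of 9 to 8 (521, others 142 to 476) and of 10 to 13 (319, others 28 to 204). Bins in which the other 8 shared state 3 were left by DBA/2J in 0.656% of cases, the lowest of 9 against 0.670% to 3.26%. Those shared in state 10 were left in 20.9%, where the others ranged from 5.48% to 20.9%, and those shared in state 12 in 12.2%, where the others ranged from 4.25% to 13.8%.

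**Figure D2:**
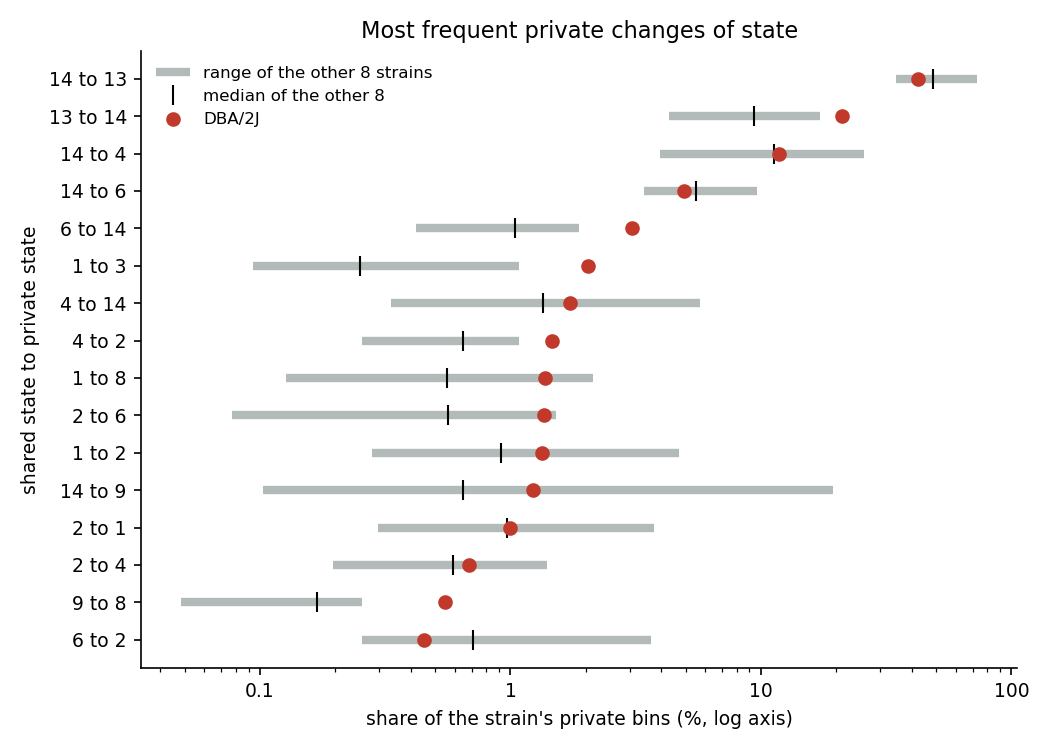
Each line is a change from the state shared by the other 8 to the private state. The axis is the percentage of a strain's private bins on a log scale, with the DBA/2J value in red, the range of the other 8 as a bar and their median as a tick. The DBA/2J point lies above the whole range for 13 to 14, 6 to 14, 1 to 3, 4 to 2 and 9 to 8.

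Private bins joined into 39580 stretches, most of them short. The median length was 400 bp, the mean 480 bp and the 90th percentile 1000 bp. Single bins made up 19129 stretches (48.3%), 5198 reached at least 1 kb, and the longest measured 10000 bp. In 98.4% of the stretches all bins had the same change. A stretch was said to have a border where DBA/2J had the same state in the bin directly before or after it, so that the stretch widens a segment that DBA/2J has there in any case. This held for 76.1% of stretches, and the other 9464 stood alone. The share with a border was 92.8% for 13 to 14, 96.4% for 6 to 14 and 95.9% for 4 to 14. It was 69.7% for 14 to 13, 68.5% for 1 to 3 and 54.1% for 14 to 6. State 14 covers 78.6% of the DBA/2J autosomes, so a neighbouring bin in state 14 is the usual case, and the shares for changes to and from state 14 are not comparable.

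The private bins lay nearer to gene starts than bins at large. Of the private bins, 2.83% lay within 1 kb of a protein-coding start, against 1.56% of all autosomal bins and 1.31% of the bins where the other 8 share a state. The private bins of the other strains gave 1.18% to 2.31%. The changes differed in place. Of the 1 to 3 bins, 42.8% lay within 1 kb of a start, against 20.03% of all bins where the other 8 share state 1, and of the 1 to 8 bins 25.3% did. Of the 14 to 13 bins, 0.934% lay near a start and 47.7% over 5 kb from any gene, against 0.467% and 47.5% of the bins where the other 8 share state 14. The 13 to 14 bins went the other way, 1.61% near a start against 2.92% where the other 8 share state 13. Of the 6 to 14 bins 0.137% lay near a start, against 0.398% where the other 8 share state 6. The 14 to 4 bins lay inside a gene in 69.1% of cases, against 44.0% of the bins where the other 8 share state 14. The 6 to 14 bins did so in 75.2%, against 82.0% where they share state 6.

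Protein-coding genes were touched often, and mostly lightly. A private bin lay in the body of 7662 of 20665 genes, 37.1%, with a median of 2 private bins per touched gene. Touched genes were longer, with a median of 225 body bins against 52 in the others. A longer gene has more bins in which a private bin can lie, so shares of genes touched depend on gene length. Within 1 kb of a start, 1899 of 16457 genes had a private bin, 11.5%. The other 8 strains gave 1130 to 3008 such genes. The change seen at most starts was 1 to 3, at 770 genes, followed by 1 to 8 at 338, 13 to 14 at 132, 14 to 13 at 123 and 3 to 1 at 119. Of the runs of adjacent 1 to 3 bins on the autosomes, 87.4% were a single bin, as were 86.4% of those of 1 to 8. Where a bin counted only if none of the others had the DBA/2J state within 1 bin, 537 starts were touched.

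The 1 to 3 bins flanked the start on both sides. Over 13797 genes with a single start, 94 had a 1 to 3 bin at 200 bp upstream and 92 at 600 bp downstream, against 40 at the start bin itself. The 1 to 8 bins were most frequent farther downstream, at 64 genes 800 bp after the start. Both changes need state 1 in all of the other 8 strains. The number of such bins at each distance was not counted, so these counts are not rates. The share of genes in state 3 at the start bin was 41.2% in DBA/2J and 38.1% to 41.0% in the others. At 200 bp upstream it was 24.7% against 20.5% to 23.8%, and at 2000 bp upstream, where 1.82% of DBA/2J genes were in state 3, the others ranged from 0.776% to 2.33%. DBA/2J had 17766 state 3 segments of 632 bp on average, ranks 3 and 2 from the highest of 9. The state 3 segments of NZO/HlLtJ were longer on average, 643 bp, and CAST/EiJ and NZO/HlLtJ had more of them, 18107 and 17866.

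**Figure D3:**
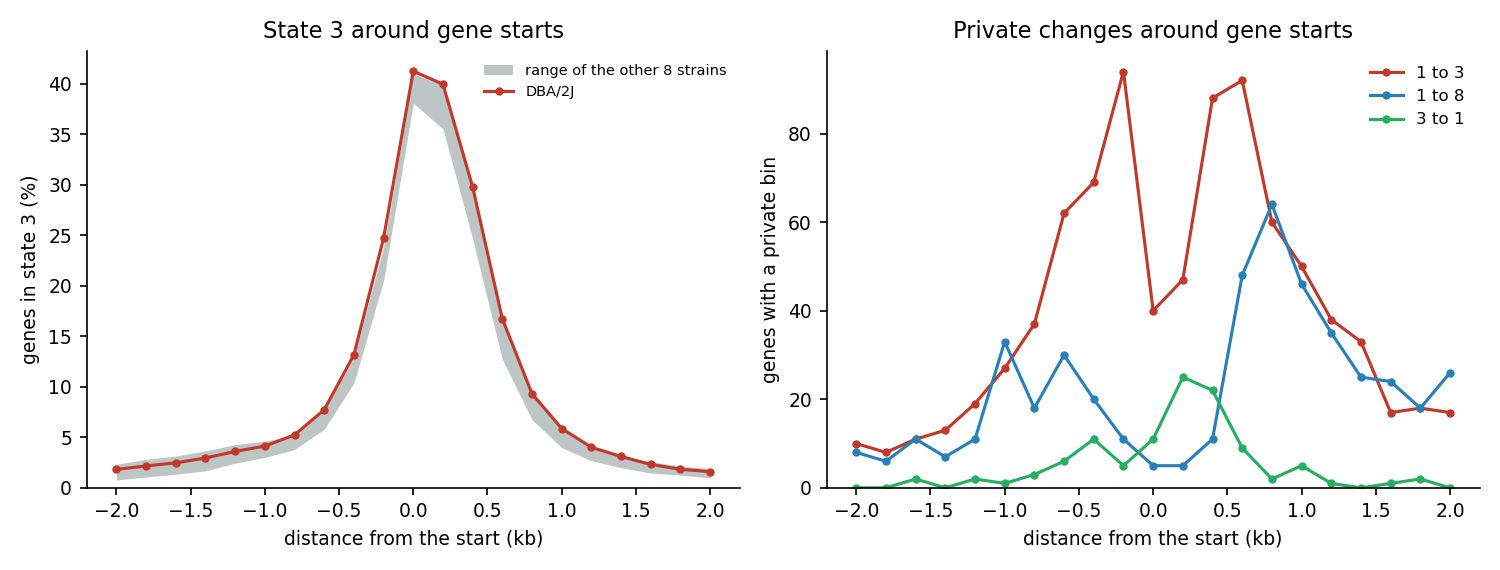
Left, the percentage of 13797 single-start genes in state 3 at each distance from the start, in kb and along the direction of transcription, for DBA/2J (line) and the range of the other 8 (band). Right, the number of these genes with a private bin of 1 to 3, 1 to 8 or 3 to 1 at each distance. The 1 to 3 counts are highest at 200 bp upstream (94 genes) and 600 bp downstream (92 genes).

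Cyp8b1 carried the change from 1 to 3 over nearly its whole body. Of its 11 body bins, 10 were in state 3 in DBA/2J, while the other 8 strains had 0 to 2 with a median of 0. They had 9 to 11 of these bins in state 1, where DBA/2J had 1. The rule counted 8 of the 11 as private, since PWK/PhJ had state 3 in 2. Akr1d1, a reductase of bile acid synthesis, had 1 private 1 to 3 bin. The bile acid pumps and carriers differed in other ways: Abcc2 had 10 bins of 4 to 14, and Slco1b2 had 2 bins of 1 to 3. In all, 9 of 22 genes of bile acid synthesis and transport had a private bin in the body (40.9%) and 2 of 16 near the start (12.5%), near the 37.1% and 11.5% over all genes.

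Some genes of secreted proteins and drug metabolism also had bins of 1 to 3. C8g, the gamma chain of complement C8, had 11 of 16 body bins in state 3 in DBA/2J and 3 to 7 in the others. Serpinc1, which encodes antithrombin, had 3 of its 11 start bins in state 3 in DBA/2J and none in the other 8. F11 (coagulation factor XI) had 2 bins of 1 to 3 and Gsta3 (a glutathione transferase) had 4. Chosen after their values were seen, the overlapping genes Ugt1a9 and Ugt1a10 had 9 bins of 1 to 3 each, largely the same bins, and Rida and Rhobtb1 had 5 each. Against the same 37.1% and 11.5%, the 34 conjugation enzymes had a private body bin in 7 cases (20.6%) and 2 of 28 near a start (7.14%), and the 47 cytochrome P450 genes in 19 (40.4%) and 6 of 36 (16.7%). Of the 37 plasma proteins and coagulation factors 36 were found, with 14 touched in the body (38.9%) and 4 of 28 near a start (14.3%). Complement genes were touched in 8 of 19 cases in the body (42.1%) and 2 of 13 near a start (15.4%).

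Coagulation genes also included changes into state 14. F5 had 12 bins of 4 to 14 and F2, which encodes prothrombin, had 9. Hc had 4 bins of 14 to 4 and 1 of 1 to 8, and 8 of its 11 start bins were in state 3 in DBA/2J against 4 to 9 in the others. The start of Hc therefore did not lie outside the range of the other strains. Masp1 had 5 bins of 4 to 14, and Cfi had 4 of 14 to 4.

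Genes of nitrogen and energy metabolism held private bins in bodies and at some starts. Ass1, the argininosuccinate synthase of the urea cycle, had 16 bins of 2 to 1. State 1 covered 109 of its 253 body bins in DBA/2J against 23 to 100 in the others, and state 2 covered 111 against 120 to 188. Cps1, the first enzyme of the cycle, had 10 bins of 2 to 1, but its 94 bins of state 1 lay within the range of the others, 47 to 100. The urea cycle and amino acid list had 14 of 20 genes touched in the body (70%) and 2 of 13 near a start (15.4%), against 37.1% and 11.5% over all genes, shares that hold for the lists that follow as well. Fatty acid and triglyceride synthesis had 14 of 22 (63.6%) and 1 of 16 (6.25%), with 12 bins of 14 to 4 in Acly and 8 of 1 to 2 in Lpin1. Fatty acid oxidation had 11 of 27 (40.7%) and 3 of 21 (14.3%), with 9 bins of 14 to 4 in Acads and 7 of 2 to 4 in Ppara, the fasting-induced receptor of lipid oxidation. Cholesterol synthesis and uptake had 12 of 23 (52.2%) and 1 of 14 (7.14%). Glucose production and glycolysis had 12 of 21 (57.1%) and 4 of 17 (23.5%), with 8 bins of 6 to 2 in Foxo1. By body bins the lists are read against the 0.772% of all autosomal bins. Private were 0.706% for glucose, 0.845% for cholesterol and 1.15% for fatty acid synthesis. For fatty acid oxidation the share was 1.60%, and for the urea cycle and amino acids 1.74%, farther above that value.

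The lists of liver identity and rhythm are likewise read against 37.1% of bodies and 11.5% of starts. Hepatocyte markers had a private body bin in 8 of 20 genes (40%) and none near 17 starts. Hepatocyte transcription factors had 10 of 18 (55.6%) and 2 of 16 (12.5%). Circadian clock genes had 14 of 19 in the body (73.7%), with 9 bins of 14 to 4 in Hlf and 7 in Arntl, and 4 of 16 near a start (25%). Iron handling had 7 of 18 (38.9%) and 1 of 12 (8.33%), and sex-biased liver genes had 12 of 36 (33.3%) and 0 of 25. The median share of body bins that were private was 0 over all genes, 1.14% over the clock genes and 0.904% over the urea cycle and amino acid genes. The interferon and antigen presentation list had 8 of 33 touched in the body (24.2%) and 1 of 25 near a start (4%). By body bins, private were 0.951% for clock genes, 1.15% for hepatocyte markers and 1.14% for hepatocyte transcription factors. Iron handling had 0.551%, sex-biased genes 0.625% and the interferon list 1.37%, against 0.772% of all autosomal bins.

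Genes of other liver cells held private bins too. Kupffer cell and leukocyte markers were touched in 7 of 14 bodies (50%) and 3 of 10 starts (30%), against 37.1% and 11.5% over all genes. Ptprc, the leukocyte antigen CD45, had 18 bins of 13 to 14, and Adgre1, the macrophage antigen F4/80, had 17. The opposite change, 14 to 13, had 7 bins in Ptprc, 8 in Klrd1, which encodes the lymphocyte receptor CD94, and 5 in Timd4, a macrophage receptor. Clec4f, a Kupffer cell lectin, had 4 of 11 start bins in state 9 in DBA/2J and none in the other 8, and Cd5l had 2 against none. Summed over the 10 starts of the list, 12 of 111 bins were in state 9 in DBA/2J, against 1 to 6 in the other strains, and state 3 was absent in DBA/2J. The myeloid genes Hk3, Ctss and Bcl2a1b, chosen after their values were seen, each had 3 start bins of 14 to 9. They are picked from 34 genes with such a start bin. With bodies counted too, the most 14 to 9 bins lay in Arhgap24 (11) and Dgkh (9), which are on none of the marker lists. The DBA/2J private bins of 14 to 9 numbered 1169 (1.23%), a share that ranged in the others from 0.102% to 19.5%, the highest in NOD/ShiLtJ. Whether a different number of Kupffer cells or leukocytes in the DBA/2J preparations bears on these bins was not tested.

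Endothelial, stellate and bile duct markers were touched in 5 of 12 (41.7%), 5 of 11 (45.5%) and 2 of 8 (25%) bodies, on both sides of the 37.1% over all genes. At endothelial starts state 9 held 11 of 88 bins in DBA/2J and 0 to 21 in the others. At stellate and bile duct starts it held 0 of 88 and 3 of 60 in DBA/2J, against 0 to 2 and 0 to 4 in the others. The higher DBA/2J count in the Kupffer cell list includes the 4 bins of Clec4f and 2 of Cd5l, absent in the other strains. Some of these bins are private by the rule, so the total of that list is a description only. The endothelial marker Clec4g also had 1 private start bin of 14 to 9.

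A small class of bins crossed between states 13 or 14 and states 1, 2 or 3. DBA/2J was alone in states 1 to 3 in 511 bins, in 255 runs, and alone in states 13 or 14 in 79 bins, in 48 runs. The first class made up 0.538% of the private bins (others 0.145% to 2.32%). The genes and regions of this class below were chosen after their values were seen, except where a gene is said to follow from the rule of the highest share.

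Zfp996 had state 3 at its start in DBA/2J alone. Of its 11 start bins, 5 were in state 3 in DBA/2J, with 2 each in states 1, 8 and 9 and none in state 14. The other 8 strains had none in state 3 and 9 to 11 in state 14, with 2 bins in state 9 in NZO/HlLtJ, 1 in state 9 in NOD/ShiLtJ and 2 in state 13 in 129S1/SvImJ. Slfn2, a Schlafen gene of lymphocyte quiescence, was named for its share of private body bins, 12 of 29, of which 11 were 13 to 14. Of the 11 bins at its start, 5 were in state 3 and 5 in state 4 in DBA/2J, while the others had none in state 3 and 5 to 11 in state 13. The rule caught 4 bins there, all 13 to 4, and none of those in state 3, where at least 1 other strain was in another state than the rest.

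Private bins outside the exchange of 13 and 14 also lay close together in longer regions, which were picked out after the values had been seen. Such bins were joined over gaps of up to 5000 bp, and 42 clusters with at least 20 private bins were found, 1138 private bins in all. The clusters were found by where DBA/2J is alone, so the separation that follows is a description. DBA/2J had fewer bins in state 14 than every other strain in 37 clusters and more than every other strain in 4.

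The clearest region of the second kind lay in the long noncoding gene 9130221F21Rik (chr6:72020401-72030600, 10200 bp). All 51 bins were in state 14 in DBA/2J, and in each of the other 8 strains all 51 were in states 1 to 4. A second lay over Gm32280 in Zbtb16, a zinc finger regulator (chr9:48670801-48676600), where 18 of 29 bins were in state 14 in DBA/2J and none in the others. With too few private bins to form a cluster, the region around Cyp2a22, a cytochrome P450 gene, showed the same pattern. Over that gene with 10 kb to each side (chr7:26921601-26949600), 127 of 140 bins were in state 14 in DBA/2J, against 34 to 60 in the others with a median of 46. States 1 to 4 held 11 bins there against 66 to 105. Only 14 bins were private by the rule, 8 of them 2 to 14, and 2 bins within 1 kb of the start were 1 to 3.

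Regions of the opposite kind were more numerous. In Oma1, a mitochondrial protease gene (chr4:103344401-103365400), 15 of 105 bins were in state 14 in DBA/2J against 89 to 97, and 82 were in states 1 to 4 against 0 to 12. In the noncoding gene Gm12718 nearby (chr4:103399601-103422000), 77 of 112 bins were in states 1 to 4 in DBA/2J and none in any other strain. At Adrb3, the beta-3 adrenergic receptor gene, and the noncoding gene Gm45470 (chr8:27222601-27241400), 88 of 94 bins were in states 1 to 4 against 7 to 22, and 35 of these were in state 1. In Ntrk2, the receptor of the growth factor BDNF (chr13:58892201-58905400), 54 of 66 bins were in states 1 to 4 against 0 to 7. In Atp2b2, a calcium pump gene (chr6:113901401-113911000), all 48 bins were in states 1 to 4 against 0 to 10, and its 31 private bins were all 14 to 4. In all of these regions the DBA/2J count in state 14 did not overlap the range of the other strains, which largely follows from how they were found.

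**Figure D4:**
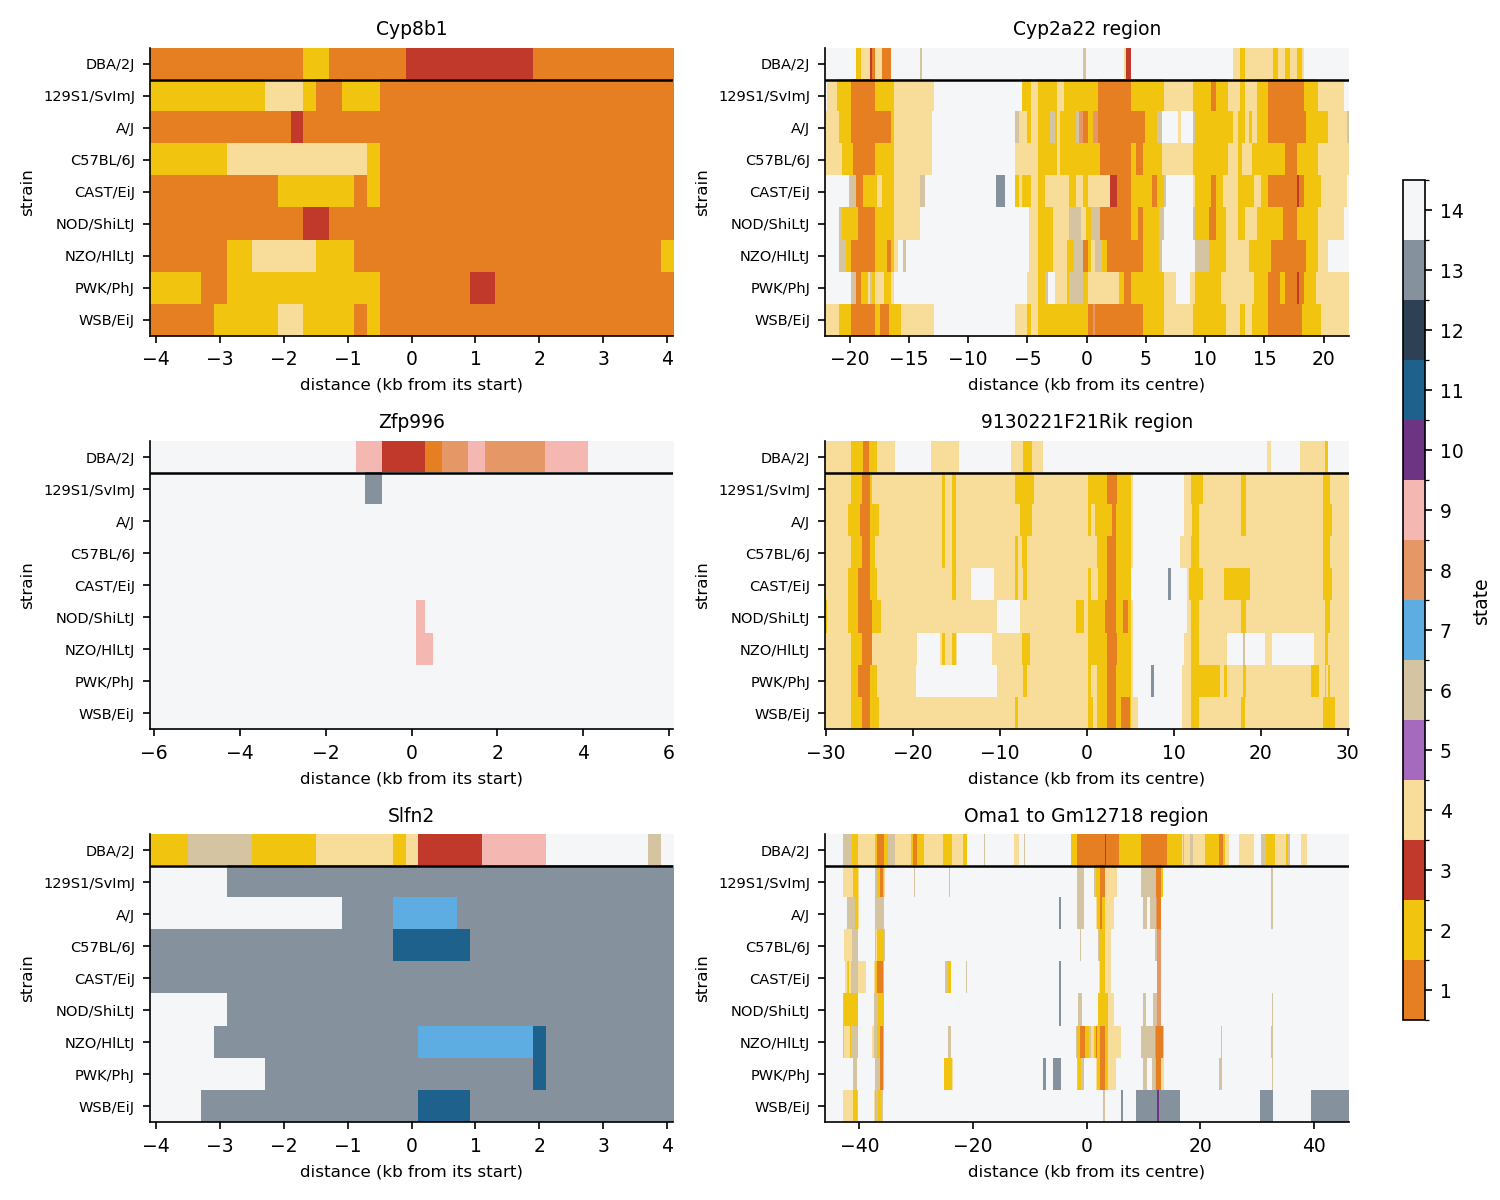
States of consecutive 200-bp bins in 9 strains at 6 loci, with DBA/2J in the top row and colour for the state. Distances are in kb from the gene start, along the direction of transcription, at Cyp8b1, Zfp996 and Slfn2, and in kb from the centre of the region in the right column. State 3, in dark red, fills 10 of 11 bins of Cyp8b1 in DBA/2J, and state 14, in pale grey, fills most of the Cyp2a22 and 9130221F21Rik regions there.

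The longest stretches lay in few places. The longest, 10000 bp of 14 to 13, stood 1600 bp from Pramel22 on chromosome 4 (chr4:143662201-143672200). A further 3 of the 10 longest lay in the same Pramel cluster, a family of germ-cell and embryo genes, and Pramel21 had 18 of 19 body bins private. Another 2 lay in Ntrk2, of 7200 bp (chr13:58898201-58905400) and 6000 bp (chr13:58875201-58881200), mostly 14 to 4. Ntrk2 had 135 private bins of 1638, with 72 of 14 to 4, 27 of 14 to 6, 22 of 4 to 2 and 11 of 14 to 2. A stretch of 7000 bp lay over Gm12718 in the region named above. The others were 14 to 13 stretches of 5600 bp in Nlrp5, an oocyte gene, of 5400 bp at Eqtn, a sperm protein gene, and of 5400 bp in Psg26, a pregnancy-specific glycoprotein gene.

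The genes with most private bins near a start were mainly those of clustered families, with 14 to 13. Nlrp5 had 15 of 22 start bins private, Gm12887 11 of 11, Ceacam13 and Psg27 11 of 11 each, and Pramel23, Ceacam12 and Klk1 9 each. In all of these the other 8 strains shared state 14. Body bins were private in 7.45% over the 13 Psg genes, 4.72% over 15 Ceacam genes, 4.23% over 18 Nlrp genes and 3.14% over 45 Pramel genes. Over the 27 genes whose symbols begin with Klk, a choice not limited to the Klk cluster, the share was 4.64%. Olfactory receptor genes, by contrast, had 1.06% over 1104 genes. The families were picked after the values were seen. Many of their members are close copies of one another, and where a read fits several copies the value at a single member is uncertain. The same holds for Cyp2a22 and Zfp996.

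The remaining genes with most private start bins were single cases. C5ar1 had 6 of 11 start bins in state 7 and 5 in state 13 in DBA/2J, while the others had none in state 7 and 9 to 11 in state 14. Arhgef10l had 9 of 11 in state 4, where the others had all 11 in state 14. Gfral had 10 of 11 in state 14 and 1 in state 13, where the others had 10 or 11 in state 13. Vmn1r232, a vomeronasal receptor gene, and Olfr919, an olfactory receptor gene, had 8 private bins of 13 to 14 each. By share of the body, Gm32280 led with 16 of 24 bins of 4 to 14, followed by Gm12887, Psg26, Klk1b5, Klk1b22 and Pramel11 with 14 to 13. Gm32280 lies within Zbtb16, for which the same bins count.

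Developmental regulators had a private body bin in 9 of 30 genes (30% against 37.1%) and 1 of 19 near a start (5.26% against 11.5%). By body bins the direction was the opposite, with 1.30% private against 0.772% of all autosomal bins. Otx2, a transcription factor of the head and eye, had 5 bins of 10 to 13. State 10 held 7 of its 34 start bins in DBA/2J against 12 to 21, and state 13 held 27 against 13 to 22. Outside the list and chosen after their values were seen, Dlx2 and Emx2 had 4 bins each of 10 to 13, all within 1 kb of the start, and Nhlh2 had 5 in the body.

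Some long genes held many private bins, in each case at a share of the body above the 0.772% of all autosomal bins. Cdh13, a cadherin, had 283 bins of 14 to 13 among 5925 body bins, Nrxn3, a neurexin, had 223 of 8062, and Unc5d, a netrin receptor, had 203 of 2866. Cpne4 had 99 bins of 13 to 14 among 2340, and Sgcd, a sarcoglycan of muscle, had 86 of 5093. These 5 genes were also chosen after their values were seen.

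Chromosomes differed less than windows within them. The percentage of private bins was highest on chromosome 12 (1.06%), chromosome 7 (1.01%) and chromosome 4 (0.914%), and lowest on chromosome 10 (0.548%). On chromosomes 10 and 19 DBA/2J had the lowest value of the 9 strains. Over 2473 windows of 1 Mb the median was 32 private bins and the highest 444, and 604 windows (24.4%) held 50% of them. DBA/2J had the most private bins of the 9 strains in 20 windows.

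**Figure D5:**
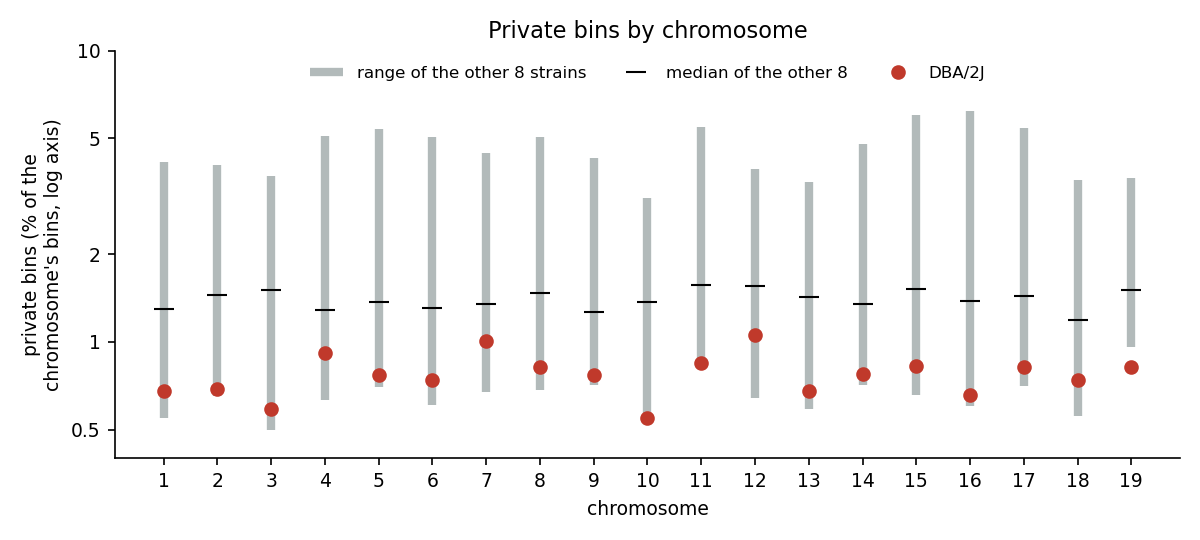
Percentage of each chromosome's bins that are private, on a log axis, for DBA/2J (red), the range of the other 8 strains (bar) and their median (tick). DBA/2J lies between 0.548% on chromosome 10 and 1.06% on chromosome 12.

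The window with most private bins lay in the immunoglobulin heavy chain locus (chr12:114000001-115000000). Of its 444 private bins, 443 were 14 to 13, and the other strains had 4 to 194 there. The annotation gave 88 heavy chain variable segments or their pseudogenes among 95 genes. Next came the Pramel cluster (chr4:143000001-144000000) with 421, of which 405 were 14 to 13, against 27 to 222. A window around Gm12880 and Gm12887 (chr4:121000001-122000000) had 384 against 28 to 163. The Psg and Ceacam cluster (chr7:18000001-19000000) had 261 against 32 to 265, and a window around Ajap1 (chr4:153000001-154000000) had 256 against 10 to 220.

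Bins just outside the rule were more numerous than those inside it. In 153522 bins DBA/2J shared its state with exactly 1 strain while the remaining 7 shared another. The partner was PWK/PhJ in 32758, WSB/EiJ in 21808 and CAST/EiJ in 19768, and 129S1/SvImJ and C57BL/6J were the rarest with 13556 and 13297. PWK/PhJ, CAST/EiJ and WSB/EiJ also had the most private bins of their own, 561176, 289622 and 248051, and C57BL/6J the fewest, 79623. The partner counts are therefore not a measure of likeness to DBA/2J. In a further 15729 bins 7 of the others shared a state, while the eighth and DBA/2J each had a state of their own.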

How the data were processed

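The authors deposited 1 segmentation per strain, in which each interval carries a state number from 1 to 14. The deposited values are categories, not a count, signal or score (unit: other). The build is mm10 per the submitters' processing notes, which also name FastQC 0.11.5 and MACS 1.4.2. The aligner and the segmentation tool are not given in the sources used here. Samples were grouped by the strain in the labels.

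Each segmentation was written as 200-bp bins with Python 3.11.15, numpy 2.4.6 and pandas 2.3.3. Simulated bins with known private bins served to test the code. Figures were drawn with matplotlib 3.10.9. Genes and starts came from RefSeq tables of GRCm38.p6. A start was known for 16457 of 20665 autosomal protein-coding genes, and the other 4208, among them all genes of chromosome 18, enter only the counts on gene bodies. The members and the 22 gene lists were chosen with earlier results of these data known. The genes named were the 12 with most private bins within 1 kb of a start, the 8 with the highest private share among bodies of at least 20 bins, those touching the 10 longest stretches, and up to 4 per list with most private bins. Other genes, families and regions are said to be chosen later. Nothing was tested, since each strain is 1 value.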

Additional observations from a re-analysis of the deposited data

Results flagged for a closer look

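Sets of 9 strain values were formed from the main results, the shares of the commonest changes and of 3 to 1, 9 to 8 and 10 to 13, the numbers of 4 changes, the shares left per state and the shares per chromosome. In these 61 sets, the highest or lowest strain was taken to stand apart where its gap to the next, over the whole range, passed Dixon's 95% limit. This happened 24 times. The limit would be passed about 3.05 times by chance if the sets were independent. They overlap, so the counts cannot be set against each other, and the limit serves only as a flag. DBA/2J stood apart in 2 sets, both added after the values were seen. Its share of 9 to 8 was 0.548%, with NOD/ShiLtJ next at 0.256%, and its share of 10 to 13 was 0.336%, with C57BL/6J next at 0.165%. By number of bins it did not stand apart in either change. PWK/PhJ stood apart 18 times. Its number of private bins was 561176, with CAST/EiJ next at 289622. It left the bins shared by the other 8 most often in state 8 (23.9%), state 9 (61.3%), state 11 (56.8%), state 13 (21.4%) and state 14 (5.61%). Its percentage of private bins was highest on chromosomes 1 (4.16%), 2 (4.04%), 4 (5.11%), 5 (5.39%), 6 (5.04%), 8 (5.07%), 11 (5.46%), 12 (3.91%), 14 (4.80%), 15 (6.02%), 16 (6.19%) and 17 (5.42%). NZO/HlLtJ had the shortest median stretch, 200 bp, where the other 8 strains had 400 bp, and the highest share of 4 to 14, 5.71%. C57BL/6J had the highest share of 1 to 2, 4.70%. NOD/ShiLtJ had the highest share of 14 to 9, 19.5%. These strains set one end of the ranges against which the DBA/2J values are given, and many of the values are not independent of each other.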

How the results depend on the processing

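No paired analysis was possible because each strain has 1 segmentation and no value per mouse. A strain's own spread and depth are unknown, so a value that moves by less than the SD over the 9 strains, or a count within 1.5 times, is taken as kept. With each of the other 8 strains left out in turn, the number of private bins was 109278 to 131391, the share with the others in state 14 was 54.8% to 62.1% and the share with DBA/2J in state 14 was 25.4% to 32.4%, and all 9 main results were kept. For these 2 shares the SD was 9.01 and 7.32, wider than the gaps to the next strains at 64.9% and 21.7%. Only DBA/2J values are given under each setting, so whether its lowest and highest ranks hold was not tested. With at least 7 of 8 sharing a state the median length was 200 bp. With states 13 and 14 merged there were 36707 private bins, 13.6% with DBA/2J in that state, and 20709 stretches of median 200 bp. Where a bin counted only if none of the others had the DBA/2J state within 1 bin, 60399 bins in 22119 stretches remained in number, 65.5% with a border, touching 4727 gene bodies and 537 starts. There the other 8 were in state 14 in 68.4% of bins. Without single-bin stretches there were 20451 stretches of median 600 bp, 70.5% with a border, touching 4089 bodies and 471 starts. With bins of 1000 bp there were 17711 bins in 14727 stretches of median 1000 bp, 62.2% with a border, touching 3906 bodies and 753 starts. With windows of 500 bp 1128 starts were touched. The number of genes touched near a start thus fell most where single bins or shifts of 1 bin were not counted.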
